A study of Mus musculus with 6 samples.

Results

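The genes described here encode enzymes that attach ubiquitin to proteins and enzymes that take it off again, measured in a mouse acinar tumour line with and without medium from cancer-associated fibroblasts. They are the genes whose symbol starts with Usp and a digit, or with Ube and a digit between 1 and 4. The pattern met 93 symbols among the 20596 gene symbols of the deposited table. Usp18 and the pseudogenes Ube2d.ps and Ube2n.ps1 were left out, which gave 90 genes, 48 named Usp and 42 named Ube. Of the Ube genes, 33 belong to the Ube2 conjugating enzyme family and 6 are Ube3 or Ube4 ligases, counting Ube2cbp, for which RefSeq gives the synonym Ube3d. The other 3, Ube4bos1, Ube4bos2 and Ube4bos3, are RNAs from the opposite strand of Ube4b and encode no enzyme. Usp6nl meets the pattern but encodes a Rab GTPase-activating protein and no ubiquitin protease. Single genes were chosen by symbol and no expression value, but the family, its split into Usp and Ube genes and the omission of Usp18 were chosen with the CAF_CM over control fold changes of these libraries known. The fold changes and calls below are therefore a description of the genes, and neither the family nor the difference between Usp and Ube genes was tested.

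Ubiquitin is a small protein that cells join to other proteins in 3 steps. An activating enzyme (E1) charges it, a conjugating enzyme (E2, most of the Ube2 genes) carries it, and a ligase (E3, among them the Ube3 and Ube4 genes) chooses the target. Chains of ubiquitin send proteins to the proteasome, move receptors through endosomes or assemble signalling complexes, depending on how the links are made. The ubiquitin-specific proteases (Usp genes) are the most numerous class of deubiquitinating enzymes, which cut ubiquitin off targets and recycle it. Some Ube2 enzymes carry related modifiers such as NEDD8 or ISG15 in place of ubiquitin. The roles given below are those known for the human or mouse proteins.

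The CAF_CM group was the 266.6 line, derived from an acinar tumour of the mouse pancreas, kept for up to 40 days in medium conditioned by cancer-associated fibroblasts. The control group was the same line without that medium. Both grew in high-glucose DMEM with serum, and each gave 3 libraries of total RNA. The 266.6 line came from a mouse with a viral T antigen driven by an elastase promoter, and all libraries share that background. How long the controls were in culture was not given in the sources used here, and medium and time cannot be told apart. The labels do not say that replicates were separate cultures, so p-values measure only how much these libraries varied, which can be technical variation.

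Libraries held between 18622370 and 21002226 reads. The biological coefficient of variation between replicates was 8.23% in CAF_CM and 2.20% in control libraries. Of 16169 genes tested (limma, Benjamini-Hochberg adjusted p under 0.05), 18.3% were higher and 16.1% lower in CAF_CM. Acinar markers were present: the 9 listed summed to 38439, 40272 and 33735 normalized counts in CAF_CM, against 67735, 65803 and 65206 in control libraries, and 4 of them fell. Of 10 fibroblast markers 7 had a value in the table, and they summed to 3107, 3609 and 3325 in CAF_CM, against 3453, 3659 and 3539.9 in control libraries, most of it from Pdgfrb. Col3a1, Lum and Fap had no value in the table, Col1a2 rose and Dcn fell. The part of these markers in the results below was not tested. In such bulk RNA, fewer cells expressing a gene and less of its RNA per cell cannot be told apart.

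Rises outnumbered falls in both groups of enzymes. Of 48 Usp genes 47 were tested, and 19 were higher and 2 lower in CAF_CM libraries, 40.4% and 4.26% of those tested, beside 18.3% and 16.1% of all genes. Of 42 Ube genes 38 were tested, with 15 higher and 2 lower, 39.5% and 5.26%. In all, 2953 genes were higher and 2602 lower; with library totals as the only scaling these were 2231 and 3179, and 10 Usp genes were higher and 3 lower, and 12 Ube genes higher and 2 lower. The median log2 fold change was 0.15 over the Usp genes, 0.14 over the Ube genes and 0.0046 over all genes tested. Among Usp genes 35 of 47 and among Ube genes 29 of 38 had a positive fold change, beside 50.6% of all genes. All 3 CAF_CM libraries lay above all 3 control libraries for 23 Usp and 17 Ube genes, and below them for 4 Usp and 4 Ube genes. Over all genes tested, 24.8% lay above and 22.9% below in this way. Because the family was proposed with this contrast known, nothing is read from these counts beside those of all genes. Without the Ube4b antisense RNA, which is no enzyme, the median of the Ube genes was 0.14, with 15 higher and 1 lower of 37.

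**Figure D1:**
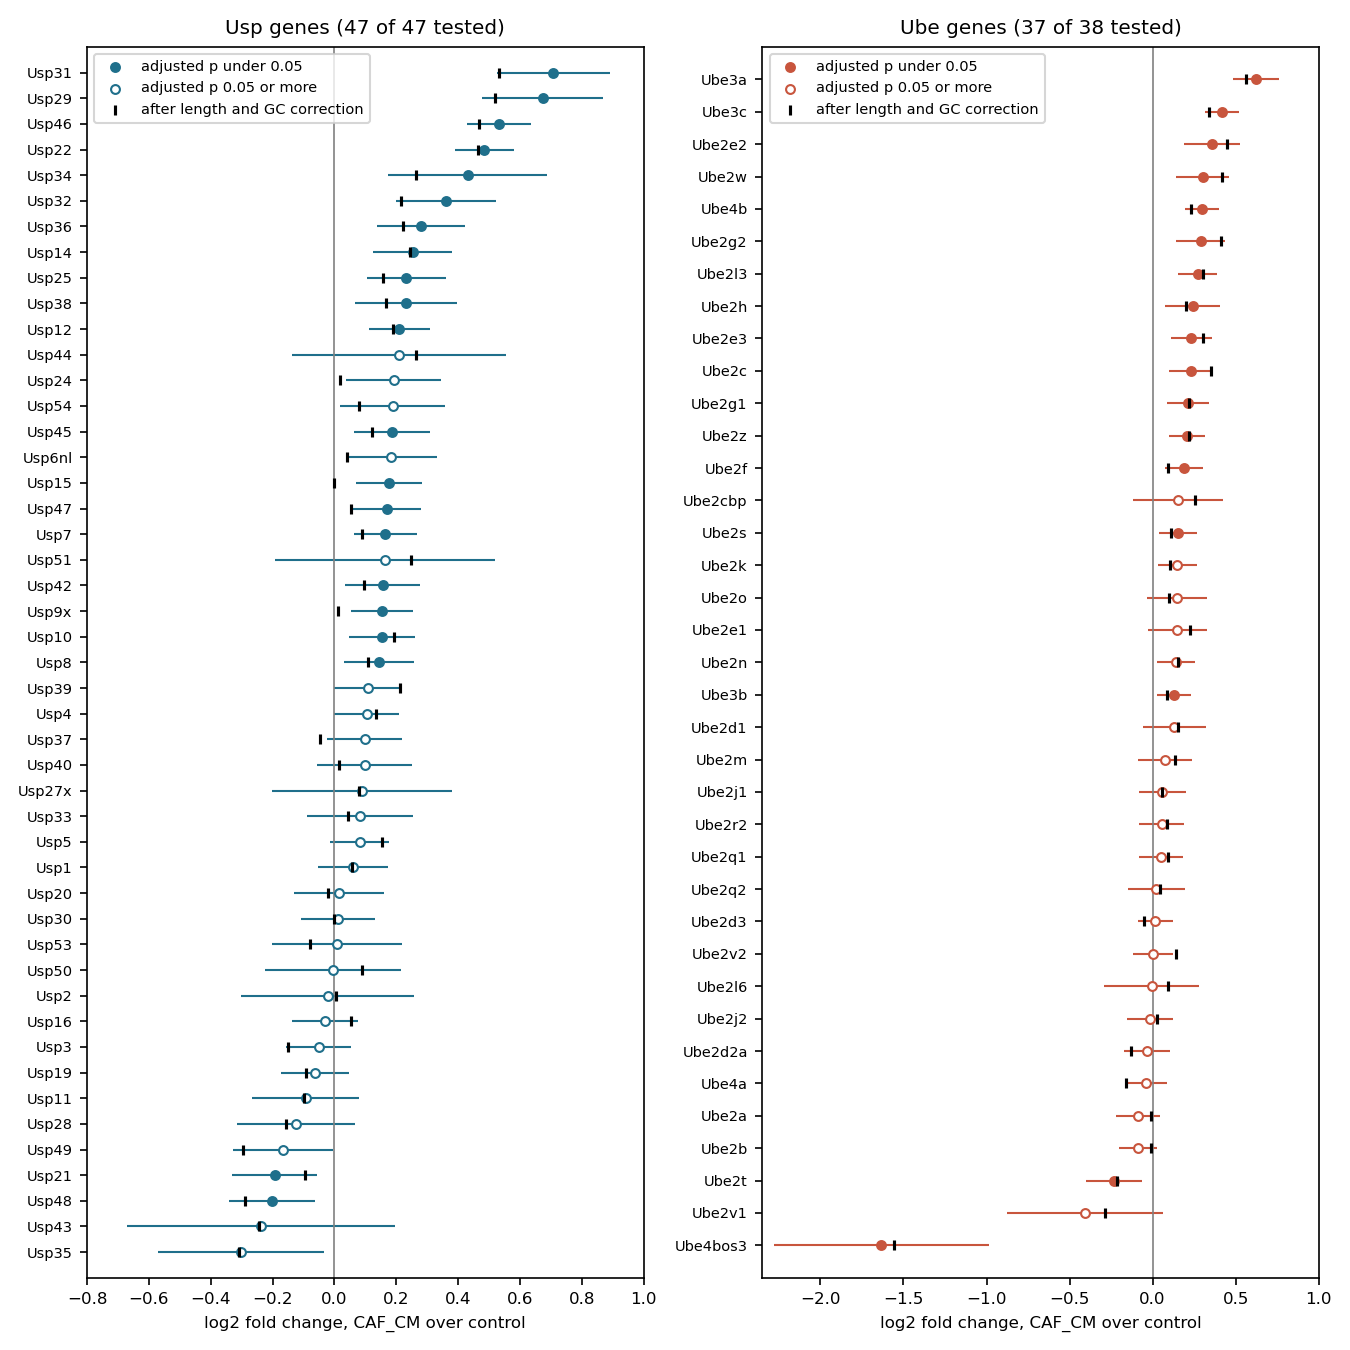
Log2 fold change (CAF_CM over control) of the tested Usp genes (left) and of 37 of 38 tested Ube genes (right), with its 95% interval from limma; filled points mark adjusted p under 0.05 and ticks the value once length and GC content were corrected for. The Usp genes run between -0.30 and 0.71, and among Ube genes Ube4bos3 stands apart at -1.63 below a range of -0.41 to 0.62.

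The 6 Usp genes with the largest rises act in different processes. Usp31, a protease reported to restrain NF-kB signalling, had 1770.0, 2251 and 2213 in the CAF_CM libraries, against 1212, 1271 and 1310.5 in the control libraries (normalized counts here and for all genes below; log2 fold change 0.71, SE 0.08, adjusted p = 1.39e-04, limma). Usp29, an imprinted gene expressed from the paternal chromosome beside Peg3, had 767, 863 and 716 in the CAF_CM libraries, against 443, 483 and 544 in the control libraries (log2 fold change 0.67, SE 0.09, adjusted p = 2.76e-04). Usp46, a protease that needs the WD-repeat proteins Wdr48 and Wdr20 for activity, had 2091, 2112 and 2094 in the CAF_CM libraries, against 1436, 1421 and 1496 in the control libraries (log2 fold change 0.53, SE 0.05, adjusted p = 3.65e-05). For each of these the lowest CAF_CM library lay well above the highest control library. The CAF_CM libraries of Usp46 were nearly equal, while replicate 1 was the lowest of them for Usp31 and replicate 3 for Usp29.

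Usp22, which takes ubiquitin off histones as part of the SAGA coactivator complex, had 5697, 5756 and 5930.3 in the CAF_CM libraries, against 4079, 4169 and 4167 in the control libraries (log2 fold change 0.49, SE 0.04, adjusted p = 3.82e-05). Usp32, a membrane-anchored protease of the Golgi and endosomes, had 1465, 1823 and 1714 in the CAF_CM libraries, against 1256, 1293 and 1327 in the control libraries (log2 fold change 0.36, SE 0.07, adjusted p = 0.00328). Usp34, which stabilises axin in Wnt signalling, had 3244, 4636 and 4841 in the CAF_CM libraries, against 3001, 3142 and 3148 in the control libraries (log2 fold change 0.43, SE 0.12, adjusted p = 0.0149). The groups did not overlap for any of the 3, but CAF_CM replicate 1 lay far nearer the controls than replicates 2 and 3 for Usp34. The call of Usp34 was lost without CAF_CM replicate 3 (adjusted p = 0.0724) and without control replicate 1 (adjusted p = 0.0642).

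**Figure D2:**
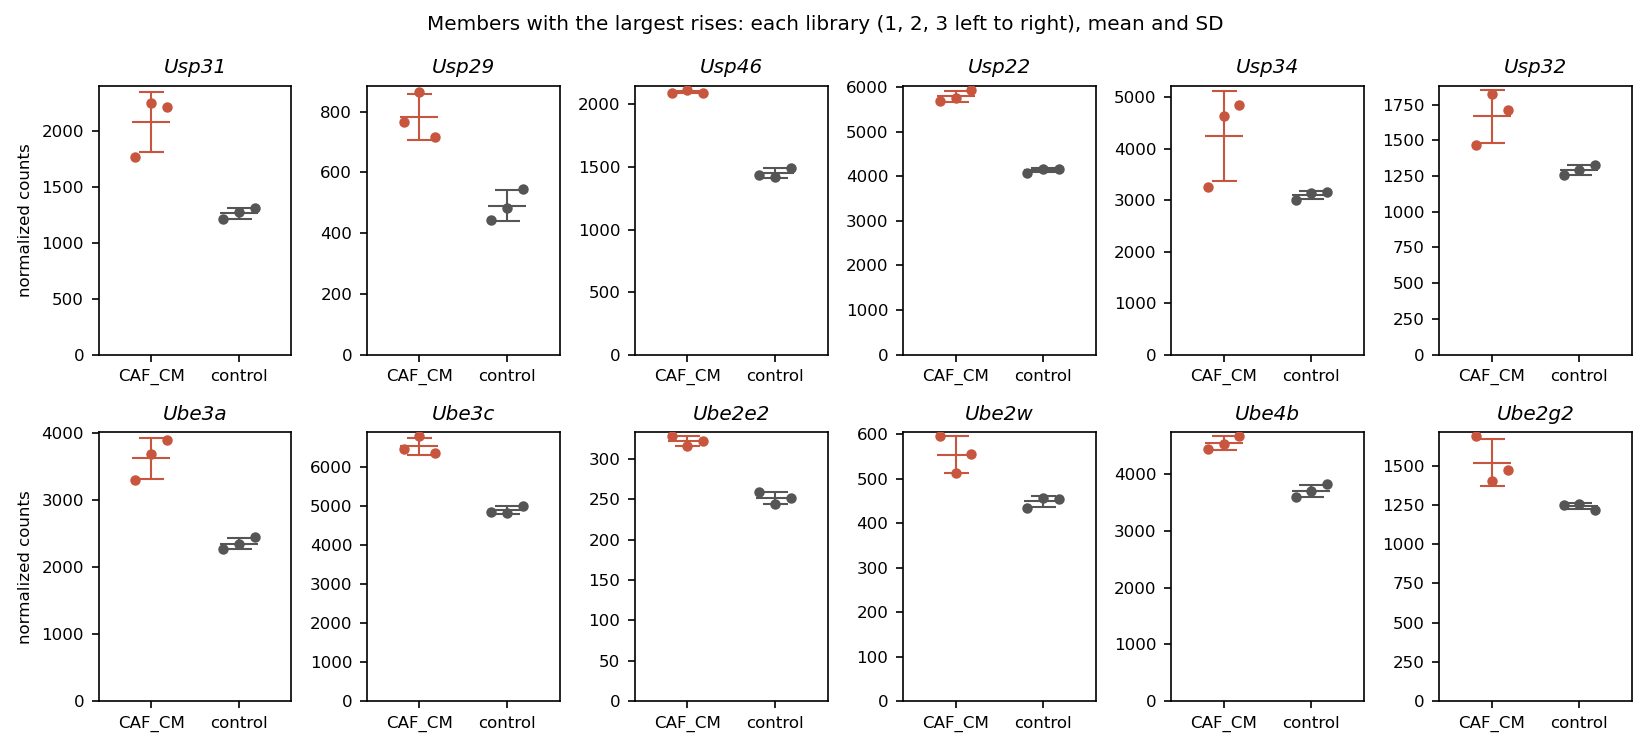
Normalized counts in each library (points, replicates 1, 2 and 3 left to right; bars mark the group mean and SD) of the Usp and Ube genes with the largest rises, CAF_CM left of control. In every gene shown the 3 CAF_CM points lie above the 3 control points, closest for Usp34 relative to its level, whose lowest CAF_CM library had 3244 normalized counts against a highest control library of 3148.

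The promoters of the genes with the 3 largest rises in each family are shown so that the sequence upstream of the genes that changed most can be set side by side. They come from RefSeq (GRCm38.p6), 250 bases before the listed transcript start, 5′ to 3′ along the gene's strand, and the table gives a promoter for 36 tested Usp and 31 tested Ube genes. The letters searched on both strands were CCAAT for the CCAAT box, GGGCGG for the GC box, CCGGAAG for ETS factors, TGACGTCA for the cAMP response element, CACGTG for the E-box and TATAAA for the TATA box, and capitals mark their matches, with overlapping GC boxes merged into 1 run. The positions are chr7:121707443-121707692 on the minus strand, chr7:6730333-6730582 on the plus strand, chr5:74068412-74068661 on the minus strand, chr7:59228500-59228749 on the plus strand, chr5:29568992-29569241 on the plus strand and chr14:18893772-18894021 on the minus strand.
Usp31: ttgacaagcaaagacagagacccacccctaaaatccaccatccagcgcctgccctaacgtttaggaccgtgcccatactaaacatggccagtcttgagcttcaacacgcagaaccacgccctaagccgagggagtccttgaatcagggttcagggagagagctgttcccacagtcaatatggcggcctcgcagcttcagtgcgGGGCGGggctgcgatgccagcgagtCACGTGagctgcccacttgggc
Usp29: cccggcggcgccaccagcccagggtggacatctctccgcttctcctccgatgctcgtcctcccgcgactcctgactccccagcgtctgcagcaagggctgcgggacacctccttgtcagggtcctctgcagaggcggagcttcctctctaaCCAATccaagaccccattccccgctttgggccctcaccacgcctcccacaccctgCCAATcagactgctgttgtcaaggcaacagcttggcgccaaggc
Usp46: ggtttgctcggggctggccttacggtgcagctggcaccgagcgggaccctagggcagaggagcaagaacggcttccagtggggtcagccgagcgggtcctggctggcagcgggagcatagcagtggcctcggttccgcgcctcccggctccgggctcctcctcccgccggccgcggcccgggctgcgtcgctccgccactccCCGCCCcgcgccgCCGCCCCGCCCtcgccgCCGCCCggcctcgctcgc
Ube3a: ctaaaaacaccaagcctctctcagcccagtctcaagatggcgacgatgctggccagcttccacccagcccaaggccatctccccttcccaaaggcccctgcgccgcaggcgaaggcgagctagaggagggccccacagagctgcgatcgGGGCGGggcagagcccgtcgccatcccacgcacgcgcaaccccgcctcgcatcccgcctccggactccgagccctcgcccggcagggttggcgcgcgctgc
Ube3c: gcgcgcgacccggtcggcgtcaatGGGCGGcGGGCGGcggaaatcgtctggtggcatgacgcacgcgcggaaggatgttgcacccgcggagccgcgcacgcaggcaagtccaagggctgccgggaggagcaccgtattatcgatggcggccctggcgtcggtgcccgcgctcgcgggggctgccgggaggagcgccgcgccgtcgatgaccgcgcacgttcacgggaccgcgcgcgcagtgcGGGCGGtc
Ube2e2: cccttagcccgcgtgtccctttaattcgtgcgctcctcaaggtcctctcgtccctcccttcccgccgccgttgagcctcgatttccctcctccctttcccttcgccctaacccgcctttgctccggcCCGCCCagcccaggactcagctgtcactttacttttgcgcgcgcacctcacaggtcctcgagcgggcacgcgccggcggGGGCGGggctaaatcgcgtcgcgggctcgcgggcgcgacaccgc

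A GC box is found in all of these promoters but that of Usp29, and the other motifs in fewer. Usp31 holds 1 GC box and 1 E-box, Usp46 holds 4 GC boxes, Ube3a 1, Ube3c 3 and Ube2e2 2. Usp29 has CCAAT at 2 places and no GC box in these letters. A GC box stands in 25 of 36 Usp promoters (69.4%) and 22 of 31 Ube promoters (71.0%), beside 60.0% of 10488 promoters of tested genes and 32.9% of all 27025 promoters in the table. CCAAT stands in 16.7% of Usp and 25.8% of Ube promoters, beside 37.0% of those of tested genes. The ETS letters stand in 19.4% of Usp and 22.6% of Ube promoters, beside 13.6%. The median number of CpG dinucleotides is 24 in Usp, 23 in Ube and 16 in tested promoters. A match is a description of letters and not a binding site.

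Counts by role, here and in the paragraphs below, stand beside 18.3% of all genes called higher and 16.1% called lower, and nothing is read from them. The Usp genes linked to signalling had 7 rises among 9 tested and a median log2 fold change of 0.21. Besides Usp31, Usp46 and Usp34 these were Usp25, Usp12, Usp15 and Usp47. Usp25, which acts in cytokine signalling, had 1191, 1339.7 and 1319 in the CAF_CM libraries, against 1083, 1087 and 1103 in the control libraries (log2 fold change 0.23, SE 0.06, adjusted p = 0.00999). Usp12, the close relative of Usp46 that uses the same WD-repeat partners, had 3292, 3353 and 3434 in the CAF_CM libraries, against 2849, 2889 and 2974 in the control libraries (log2 fold change 0.21, SE 0.05, adjusted p = 0.00457). Both had groups that did not overlap, with changes much smaller than that of Usp46. Usp15, a regulator of TGF-beta receptor complexes, and Usp47, which acts on a repair polymerase and on Wnt signalling, rose by 0.18 (adjusted p = 0.0162) and 0.17 (adjusted p = 0.0216) on the log2 scale, calls that held in 12 (Usp15) and 11 (Usp47) of 18 alternatives. Usp4 (0.10, adjusted p = 0.115) and the clock-associated Usp2 (-0.02, adjusted p = 0.914) did not pass.

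Of 14 tested Usp genes that act on histones or in DNA repair, 3 rose and 2 fell, close to the 18.3% and 16.1% of all genes, and their median log2 fold change was 0.01. Besides Usp22 the rises were those of Usp7 and Usp45. Usp7, the protease of Mdm2 and p53, had 5819, 5803 and 5771 in the CAF_CM libraries, against 4960.4, 5210.1 and 5357 in the control libraries (log2 fold change 0.16, SE 0.05, adjusted p = 0.0179), and its groups did not overlap. Usp45, a partner of a DNA repair nuclease, rose by 0.19 (adjusted p = 0.0243). Of 18 alternatives, 13 kept the call of Usp7 and 11 that of Usp45. Usp48, which takes ubiquitin off a histone site set by BRCA1, had 2278, 2706 and 2594 in the CAF_CM libraries, against 2822, 2909 and 2967 in the control libraries (log2 fold change -0.20, SE 0.06, adjusted p = 0.0286). Usp21, a histone protease, had 956, 836 and 868 in the CAF_CM libraries, against 1037, 1008 and 992 in the control libraries (log2 fold change -0.19, SE 0.06, adjusted p = 0.0324). The groups did not overlap for either. The call of Usp48 was lost without any of control replicates 1, 2 or 3 (adjusted p = 0.0654, 0.0949 and 0.110). That of Usp21 was lost in 7 of 18 alternatives, including each library left out except CAF_CM replicate 1, with adjusted p over the alternatives between 0.0021 and 0.230. The remaining 9 genes did not pass, with log2 fold changes between -0.17 (Usp49) and 0.21 (Usp44); they are Usp1, Usp3, Usp11, Usp16, Usp27x, Usp28, Usp44, Usp49 and Usp51.

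Among 8 Usp genes of membranes and organelles, 4 rose. Apart from Usp32 these were Usp9x, Usp10 and Usp8. Usp9x, an abundant protease with many substrates in trafficking and survival, had 10085, 10484 and 10634 in the CAF_CM libraries, against 9104, 9496 and 9423 in the control libraries (log2 fold change 0.15, SE 0.05, adjusted p = 0.0228). Usp10, which binds the stress granule protein G3bp1, had 1977, 1902 and 1932 in the CAF_CM libraries, against 1770.3, 1777 and 1675 in the control libraries (log2 fold change 0.15, SE 0.05, adjusted p = 0.0312). Usp8, which works with Stam on endosomes, had 1292, 1351 and 1393 in the CAF_CM libraries, against 1220.3, 1220.2 and 1207 in the control libraries (log2 fold change 0.15, SE 0.05, adjusted p = 0.0482). None of these 3 had overlapping groups, and replicate 1 or 2 was the lowest CAF_CM library in each. The call of Usp8 held in only 5 of 18 alternatives and was lost with edgeR (adjusted p = 0.0553), DESeq2 (0.144) and the replicate block (0.0547). Those of Usp9x and Usp10 held in 11 and 12. Usp33 (0.08), Usp20 (0.02), the mitochondrial Usp30 (0.01) and Usp19 of the endoplasmic reticulum (-0.06) did not pass.

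Usp14, which trims ubiquitin chains on the proteasome, had 2554, 2189.8 and 2318 in the CAF_CM libraries, against 1961, 1962 and 1989.8 in the control libraries (log2 fold change 0.25, SE 0.06, adjusted p = 0.00677), with no overlap. Usp5, which takes apart free chains, had a log2 fold change of 0.08, adjusted p = 0.169, and its relative Usp13 had 5.15, 8.81 and 5.69 in the CAF_CM libraries, against 2.89, 7.14 and 8.37 in the control libraries, too low to test. Usp36, a nucleolar protease of ribosome synthesis, had 1544, 1418 and 1645 in the CAF_CM libraries, against 1229, 1334 and 1226 in the control libraries (log2 fold change 0.28, SE 0.06, adjusted p = 0.00633). The splicing factor Usp39 had a log2 fold change of 0.11, adjusted p = 0.112. Of the 12 tested Usp genes outside these role groups, 3 rose: Usp29, Usp38 (0.23, adjusted p = 0.0341) and the p53-linked Usp42 (0.16, adjusted p = 0.0471). The call of Usp42 held in 5 of 18 alternatives and was lost with edgeR (adjusted p = 0.0529), DESeq2 (0.167) and the replicate block (0.0578). That of Usp38 held in 9 and was lost with DESeq2 (adjusted p = 0.0617). The rest of these genes, Usp6nl, Usp24, Usp35, Usp37, Usp40, Usp43, Usp50, Usp53 and Usp54, ranged between -0.30 (Usp35, adjusted p = 0.0783) and 0.19 (Usp24, adjusted p = 0.0561) without passing.

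Levels between genes are compared per kilobase of the longest annotated transcript. On that scale Usp5 (1309.6 per kilobase in CAF_CM and 1237 in control libraries) had the highest level among Usp genes in both groups. Usp22 (1307 per kilobase in CAF_CM and 933 in control libraries) and Usp7 (1222 per kilobase in CAF_CM and 1091 in control libraries) came next in CAF_CM libraries, while in control libraries Usp1 (1166 per kilobase in CAF_CM and 1118 in control libraries) stood above both. Usp9x, first by normalized counts, had 875 per kilobase in CAF_CM and 786 in control libraries. Among Ube genes Ube2m had 2038 per kilobase in CAF_CM and 1928 in control libraries, and Ube2l3 had 1767 per kilobase in CAF_CM and 1462 in control libraries. Ube2b (1596 per kilobase in CAF_CM and 1701 in control libraries) stood above Ube2l3 in control libraries. Usp43 and Usp27x were the lowest tested Usp genes, with 11.7 per kilobase in CAF_CM and 13.5 in control libraries and 20.6 per kilobase in CAF_CM and 19.3 in control libraries.

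Of the 6 ligases, 4 rose, with a median log2 fold change of 0.22. Ube3a, the HECT ligase whose loss from the maternal chromosome causes Angelman syndrome in people, had 3302, 3686 and 3899 in the CAF_CM libraries, against 2275, 2342 and 2446 in the control libraries (log2 fold change 0.62, SE 0.06, adjusted p = 6.33e-05). Ube3c, a HECT ligase that works at the proteasome, had 6440.4, 6771 and 6357 in the CAF_CM libraries, against 4837, 4807 and 4996 in the control libraries (log2 fold change 0.42, SE 0.05, adjusted p = 1.04e-04). Ube4b, which lengthens ubiquitin chains, had 4439.8, 4534 and 4681 in the CAF_CM libraries, against 3602, 3697 and 3823 in the control libraries (log2 fold change 0.30, SE 0.05, adjusted p = 7.35e-04). The lowest CAF_CM library lay above the highest control library for all of them, by the largest ratio for Ube3a. Ube3b rose by 0.13 (adjusted p = 0.0480), a call that held in 6 of 18 alternatives and was lost with edgeR (adjusted p = 0.0621), DESeq2 (0.128), library totals (0.178) and the replicate block (0.0565). Of the other ligases, Ube4a (-0.04, adjusted p = 0.645) and Ube2cbp (0.15, adjusted p = 0.374) did not pass.

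At 2 of these loci an RNA of the opposite strand fell. Ube4bos3, on the opposite strand of Ube4b, had 7.21, 5.88 and 7.59 in the CAF_CM libraries, against 20.2, 19.4 and 32.4 in the control libraries (log2 fold change -1.63, SE 0.30, adjusted p = 0.00164), so each control library had more than each CAF_CM library, all at low counts. Ube4bos1 (1.03, 2.94 and 4.75 in the CAF_CM libraries, against 1.93, 3.06 and 3.14 in the control libraries) and Ube4bos2 (1.03, 0.00 and 3.80 in the CAF_CM libraries, against 0.963, 1.02 and 3.14 in the control libraries) were too low to test. Snhg14, a long RNA that runs against Ube3a and shares 1803 exon bases with it in GENCODE M21, had 185, 196 and 205 in the CAF_CM libraries, against 348, 324 and 360.1 in the control libraries (log2 fold change -0.81, SE 0.08, adjusted p = 7.59e-05); it is no member and was picked after its values were seen. Whether counting used strand was not given in the sources used here, and without strand the reads of overlapping genes on opposite strands cannot be told apart. Exons of 28 of the 85 tested members overlap a gene on the opposite strand and those of 8 a gene on the same strand. On the opposite strand, Usp29 shares 2582 exon bases with Zim3, Usp14 2169 with Thoc1, Usp34 2137 with Ahsa2 and Ube2l3 1670 with Ydjc. Usp49 shares 4392 with Gm20517 on its own strand. Peg3, the imprinted neighbour of Usp29, likewise picked after its values were seen, had 15863, 19605 and 19129 in the CAF_CM libraries, against 13333, 14019.5 and 14261 in the control libraries (log2 fold change 0.39, SE 0.07, adjusted p = 0.00230).

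The Ube2 family had 11 rises and 1 fall among 31 tested genes, with a median of 0.13. Among 14 general ubiquitin E2 genes 6 rose. Ube2e2, an E2 that works with RING ligases, had 328, 316 and 323 in the CAF_CM libraries, against 259, 244 and 251 in the control libraries (log2 fold change 0.36, SE 0.08, adjusted p = 0.00412). Ube2w, which joins ubiquitin to the amino terminus of proteins, had 596, 513 and 555 in the CAF_CM libraries, against 435, 458 and 455 in the control libraries (log2 fold change 0.30, SE 0.07, adjusted p = 0.00835). Ube2l3, the partner of HECT and RBR ligases, had 5735, 5106 and 5142 in the CAF_CM libraries, against 4388, 4364 and 4475 in the control libraries (log2 fold change 0.27, SE 0.05, adjusted p = 0.00266). In all 3 the groups did not overlap, and replicate 1 was the highest CAF_CM library. Ube2h (0.24, adjusted p = 0.0296), the E2 of the CTLH ligase, Ube2e3 (0.23) and Ube2z (0.21), which is charged by Uba6, also rose. Ube2h had 2606, 3137 and 2480 in CAF_CM replicates 1, 2 and 3, and its call held in 14 of 18 alternatives. It was lost with library totals (adjusted p = 0.0719) and without control replicate 1, 2 or 3. Ube2k, Ube2o, Ube2e1, Ube2d1, Ube2q1, Ube2q2, Ube2d3 and Ube2d2a did not pass, with log2 fold changes between -0.04 (Ube2d2a) and 0.15 (Ube2k, adjusted p = 0.0527).

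Of 4 E2 genes of endoplasmic reticulum degradation, 2 rose. Ube2g2, the E2 of ligases that clear misfolded proteins from the endoplasmic reticulum, had 1688, 1399 and 1472 in the CAF_CM libraries, against 1248, 1254 and 1218 in the control libraries (log2 fold change 0.29, SE 0.07, adjusted p = 0.00710), with CAF_CM replicate 1 well above replicates 2 and 3. Ube2g1 rose by 0.21, while Ube2j1 (0.06) and Ube2j2 (-0.01) did not pass. Of 3 cell cycle E2 genes, Ube2c and Ube2s rose, which together build chains for the anaphase-promoting complex. Ube2c had 2848, 2474 and 2453 in the CAF_CM libraries, against 2215, 2175 and 2228 in the control libraries (log2 fold change 0.23, SE 0.06, adjusted p = 0.0133), and Ube2s had 6821, 6131 and 6166 in the CAF_CM libraries, against 5823, 5766 and 5614 in the control libraries (log2 fold change 0.15, SE 0.05, adjusted p = 0.0441). Replicate 1 was the highest CAF_CM library for both, and the call of Ube2s was lost in 9 of 18 alternatives, among them without CAF_CM replicate 3 and without each control replicate. Ube2r2 (0.05) did not pass.

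The E2 genes of DNA damage signalling had a median of -0.09 over 6 tested, and only the fall of Ube2t passed. After the length and GC correction described below their median was -0.01, with Ube2n called higher and Ube2t lower. Ube2t, the E2 of the Fanconi anaemia pathway, had 500.4, 450.5 and 518 in the CAF_CM libraries, against 606, 584 and 537 in the control libraries (log2 fold change -0.23, SE 0.08, adjusted p = 0.0344), with the highest CAF_CM library below the lowest control library. Its call was lost without CAF_CM replicate 2 (adjusted p = 0.0768) and without control replicates 1 (0.147) and 2 (0.117). Ube2a and Ube2b, the RAD6 homologues, each had a log2 fold change of -0.09 and did not pass. Ube2n, which makes signalling chains with Ube2v1 or Ube2v2, had a log2 fold change of 0.14, adjusted p = 0.0521. Ube2n.ps1, by its symbol a pseudogene of Ube2n, had 833, 658 and 762 in the CAF_CM libraries, against 713, 667 and 714 in the control libraries. How alike these sequences are was not examined, and reads could have been split between them. Ube2v2 had a log2 fold change of 0.00 and Ube2v1 one of -0.41 (adjusted p = 0.165), Ube2v1 at 30.9, 35.3 and 48.4 normalized counts in CAF_CM and 40.5, 52.0 and 59.7 in control libraries; it shares 1673 exon bases with Gm20431 on its own strand.

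Among E2 genes of ubiquitin-like modifiers, Ube2f, an E2 of NEDD8, had 1211, 1219 and 1166 in the CAF_CM libraries, against 1035, 1045 and 1074 in the control libraries (log2 fold change 0.19, SE 0.05, adjusted p = 0.0151), a call that held in 14 of 18 alternatives. The other NEDD8 enzyme Ube2m had a log2 fold change of 0.07, adjusted p = 0.466. Ube2l6, the ISG15 E2, had 107, 95.0 and 95.9 in the CAF_CM libraries, against 87.6, 112 and 100.5 in the control libraries (log2 fold change -0.01, adjusted p = 0.975), with overlap. The last members, Ube2u (1.03, 0.979 and 0.00 in the CAF_CM libraries, against 1.93, 5.10 and 2.09 in the control libraries) and Ube2nl (4.12, 4.90 and 2.85 in the CAF_CM libraries, against 3.85, 5.10 and 2.09 in the control libraries), were too low to test.

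The order of Usp and Ube genes differed between the CAF_CM libraries. As the median log2 value minus the control mean, the Usp genes stood at 0.0883, 0.152 and 0.164 in CAF_CM replicates 1, 2 and 3, and the Ube genes at 0.196, 0.0362 and 0.101. As deposited, the Ube median was thus the higher one in replicate 1 and the Usp median in replicates 2 and 3. Usp minus Ube was -0.108, 0.115 and 0.0629 in these libraries, a mean of 0.023 ± 0.117, against 0.0014 ± 0.0115 in control libraries (SD, n = 3 each). The mean difference was smaller than the spread between CAF_CM replicates. Replicate 1 was the lowest CAF_CM library for 29 of 47 Usp genes and the highest for 22 of 38 Ube genes, while replicate 2 was the lowest for 25 Ube genes. Over all genes tested, replicate 1 was the lowest for 35.3% and the highest for 37.3%, and replicate 2 the lowest for 35.9%. After the length and GC correction described below, Usp minus Ube was -0.154, 0.0062 and -0.0015 in CAF_CM replicates 1, 2 and 3. Its mean was then -0.050 ± 0.090 (SD, n = 3). The mean thus changed sign, and the Usp and Ube medians hardly differed in replicates 2 and 3.

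**Figure D3:**
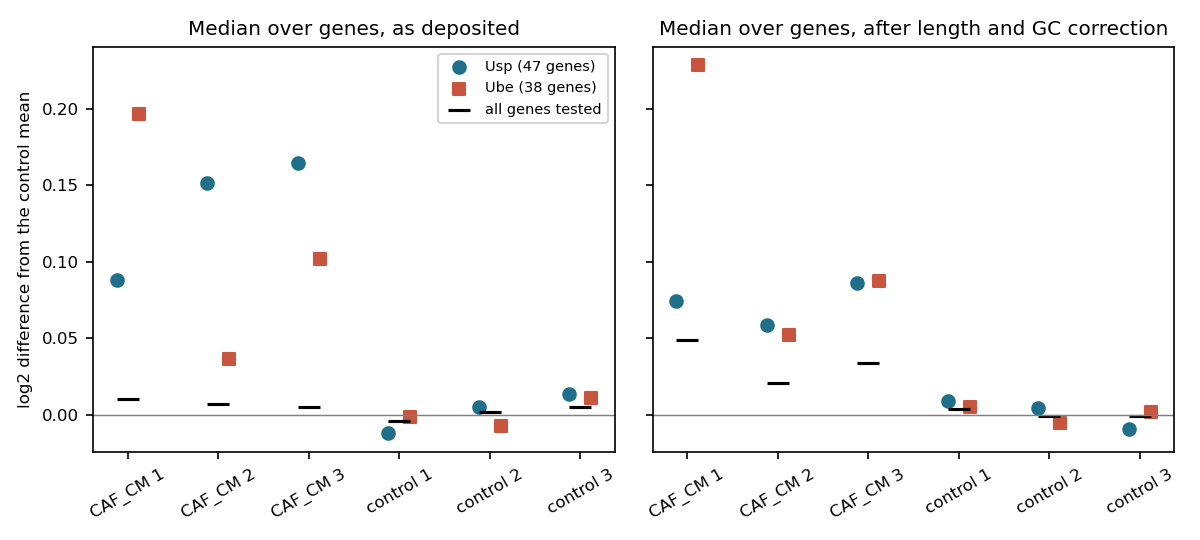
Median log2 value minus the control mean over the Usp, Ube and all tested genes in each library, as deposited (left) and with length and GC content corrected for (right), CAF_CM left of control. As deposited, Ube lies above Usp in CAF_CM replicate 1 (0.196 and 0.0883) and below it in replicates 2 and 3, while control medians stay within 0.0138 of 0. Once corrected, Usp and Ube lie at 0.0585 and 0.0523 in CAF_CM replicate 2 and at 0.0859 and 0.0874 in replicate 3.

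Transcript length moved with these values. The longest annotated transcript had a median of 4738 bases over Usp, 3507 over Ube and 3000 over all genes tested. Over all genes up to 2500 bases the median log2 fold change was -0.05 and over those longer than 7000 bases it was 0.17, and 8.96% and 38.7% of them were called higher. In CAF_CM replicate 1 the medians of these length classes were 0.0094 and 0.0113, in replicate 2 they were -0.0836 and 0.273, and in replicate 3 -0.0681 and 0.237. Among 10 Usp genes longer than 7000 bases 6 rose and the median was 0.19, and among 21 between 3501 and 5000 bases 9 rose, beside 22.7% of all genes in that class, and the median was 0.09. Over the 29 Ube genes within the length range of the Usp genes, 2129 to 12200 bases, 14 rose, 1 fell and the median was 0.15, beside 0.15 for the Usp genes. By length class, between 8.96% and 38.7% of all genes were called higher and between 6.18% and 19.4% lower. No share of all genes was taken over that range itself, and nothing is read from this count. The part of length in these results beyond the correction below was not tested.

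**Figure D4:**
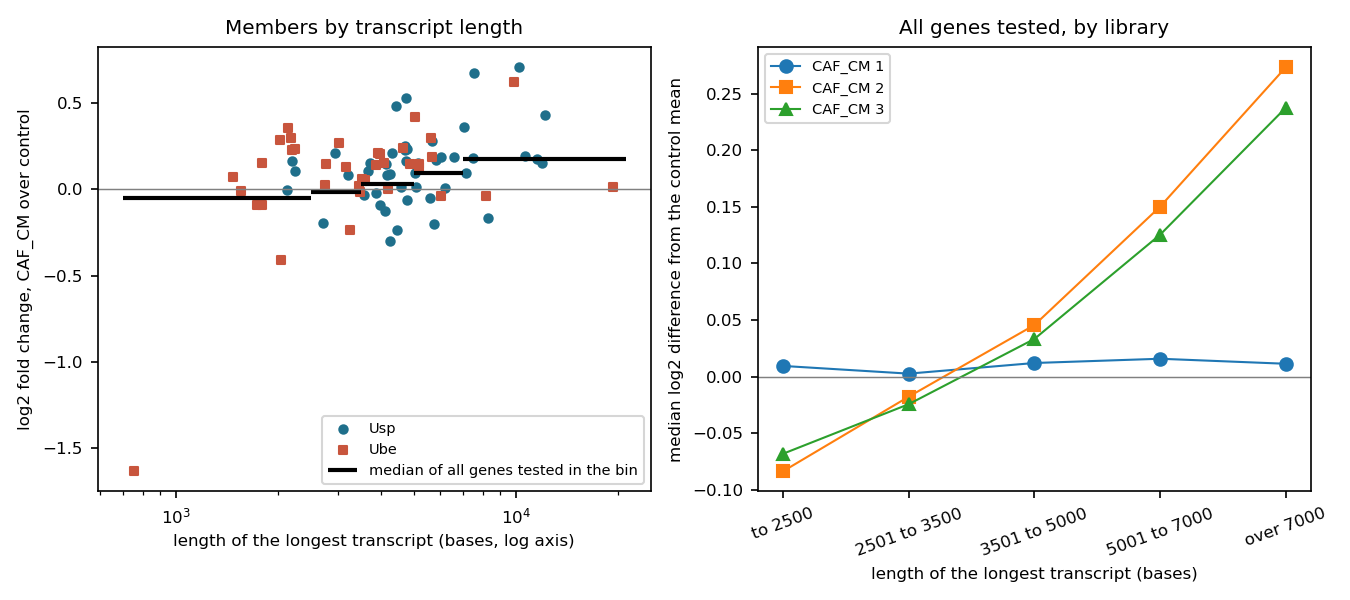
Left, log2 fold change (CAF_CM over control) of each tested Usp and Ube gene against its longest transcript (bases, log axis), with black lines for the median of all genes tested in each length class; right, the median log2 difference from the control mean over all genes in each CAF_CM library by class. The median of all genes climbs by class, to 0.17 above 7000 bases, and the climb lies in CAF_CM replicates 2 and 3 while replicate 1 stays between 0.0026 and 0.0157.

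After each library was corrected for length and GC content with a spline over all genes, 15 Usp genes were higher and 3 lower, and 15 Ube genes were higher and 3 lower, with 22.8% of all 15979 genes in this fit higher and 15.8% lower. The medians were 0.08 for Usp, 0.12 for Ube and 0.03 for all genes. Of the 19 Usp rises 12 were called in both fits, and Usp7, Usp8, Usp9x, Usp15, Usp38, Usp42 and Usp47 were not. Usp9x, 11887 bases long, had a corrected log2 fold change of 0.01 and Usp15, 11525 bases long, of 0.00. Usp4, Usp5 and Usp39 were called higher in the corrected fit alone, and Usp3 and Usp49 lower. Of the 15 Ube rises 12 were called in both, Ube2f, Ube2s and Ube3b were not, and 3 were added, among them Ube2e1 and Ube2n, with Ube4a called lower. The largest rises stayed called, at 0.53 for Usp31, 0.52 for Usp29, 0.47 for Usp46, 0.47 for Usp22, 0.56 for Ube3a and 0.34 for Ube3c. Usp48 had a corrected log2 fold change of -0.29 (adjusted p = 2.55e-04).

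The rest of the ubiquitin system was followed in 8 lists with 78 tested genes, of which 25 rose and 7 fell, with a median log2 fold change of 0.08, beside 18.3% and 16.1% of all genes higher and lower and a median of 0.0046. The lists are small, and nothing is read from their counts. Among 8 E1 genes 3 rose and 2 fell. Uba7, the E1 of ISG15, had 47.4, 50.9 and 41.8 in the CAF_CM libraries, against 116, 103 and 82.7 in the control libraries (log2 fold change -1.08, SE 0.16, adjusted p = 5.36e-04), and Usp18, the protease that removes ISG15 and is left out of the members, had 36.0, 43.1 and 34.2 in the CAF_CM libraries, against 58.8, 67.3 and 72.2 in the control libraries (log2 fold change -0.79, SE 0.17, adjusted p = 0.00387). The control libraries lay above the CAF_CM libraries for both, while Isg15 itself had a log2 fold change of -0.44, adjusted p = 0.298. Uba6, which charges Ube2z, had 776, 785 and 808 in the CAF_CM libraries, against 606, 635 and 621 in the control libraries (log2 fold change 0.35, SE 0.06, adjusted p = 9.45e-04), and Uba1, the main ubiquitin E1, rose by 0.20 (adjusted p = 0.00860). Of 11 genes for ubiquitin and its relatives 2 fell, among them Rps27a (-0.18, adjusted p = 0.0253), which encodes ubiquitin fused to a ribosomal protein and whose processed copies can take reads. Rps27a had 11623, 10262 and 11116 in the CAF_CM libraries, against 11999, 12583 and 12870.2 in the control libraries. The polyubiquitin gene Ubb (-0.02, adjusted p = 0.838) did not pass.

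The lists of other protease classes stand beside the same 18.3% and 16.1%. Of 4 UCH proteases 2 rose. Uchl1, common in neurons and endocrine cells, had 1872, 1534 and 1632 in the CAF_CM libraries, against 1208, 1125 and 1205 in the control libraries (log2 fold change 0.51, SE 0.07, adjusted p = 4.03e-04), and the nuclear Bap1 rose by 0.14 (adjusted p = 0.0337). Of 13 OTU proteases 6 rose, with the largest rise in Otub2 (0.45, adjusted p = 0.00672) and the lowest adjusted p-values in Otud6b (0.41, adjusted p = 2.20e-04) and Otud4 (0.34, adjusted p = 5.12e-04), and 1 fell, the NF-kB inhibitor Tnfaip3 (-0.47, adjusted p = 0.00306). Of 16 MJD, JAMM, MINDY and related proteases 4 rose, among them Mindy2 (0.48, adjusted p = 5.08e-04) and Josd1 (0.30, adjusted p = 0.00104), and 2 fell, Josd2 (-0.31, adjusted p = 0.00147) and Brcc3 (-0.24, adjusted p = 0.0387). Of 9 proteases of SUMO and other modifiers 4 rose, among them Senp5 (0.34, adjusted p = 0.00134) and Senp6 (0.25, adjusted p = 0.00410). Of 8 further E2-like genes 1 rose, the endosomal sorting factor Tsg101 (0.21, adjusted p = 0.00888).

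Of 9 cofactors of Usp enzymes 5 rose, beside 18.3% of all genes. Stam, the endosomal partner of Usp8, had 1146, 1132 and 1107 in the CAF_CM libraries, against 810.0, 861 and 834 in the control libraries (log2 fold change 0.43, SE 0.05, adjusted p = 1.89e-04), and Stam2 rose by 0.28. Atxn7l3, the scaffold of Usp22 in SAGA, had 1748, 1666 and 1636 in the CAF_CM libraries, against 1286, 1324 and 1347 in the control libraries (log2 fold change 0.35, SE 0.05, adjusted p = 4.57e-04). Neither gene's groups overlapped. The other SAGA partners Atxn7 (-0.05) and Eny2 (-0.01) did not pass. Wdr48, which activates Usp46, Usp12 and Usp1, had a log2 fold change of 0.18, adjusted p = 0.0557, and Wdr20 one of 0.11, adjusted p = 0.262. G3bp1, the partner of Usp10, rose by 0.17, and Gmps, a partner of Usp7, by 0.18. After the length and GC correction G3bp1 (0.05, adjusted p = 0.554) and Gmps (0.09, adjusted p = 0.377) were not called. Wdr48 was called higher there (0.19, adjusted p = 0.0325).

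**Figure D5:**
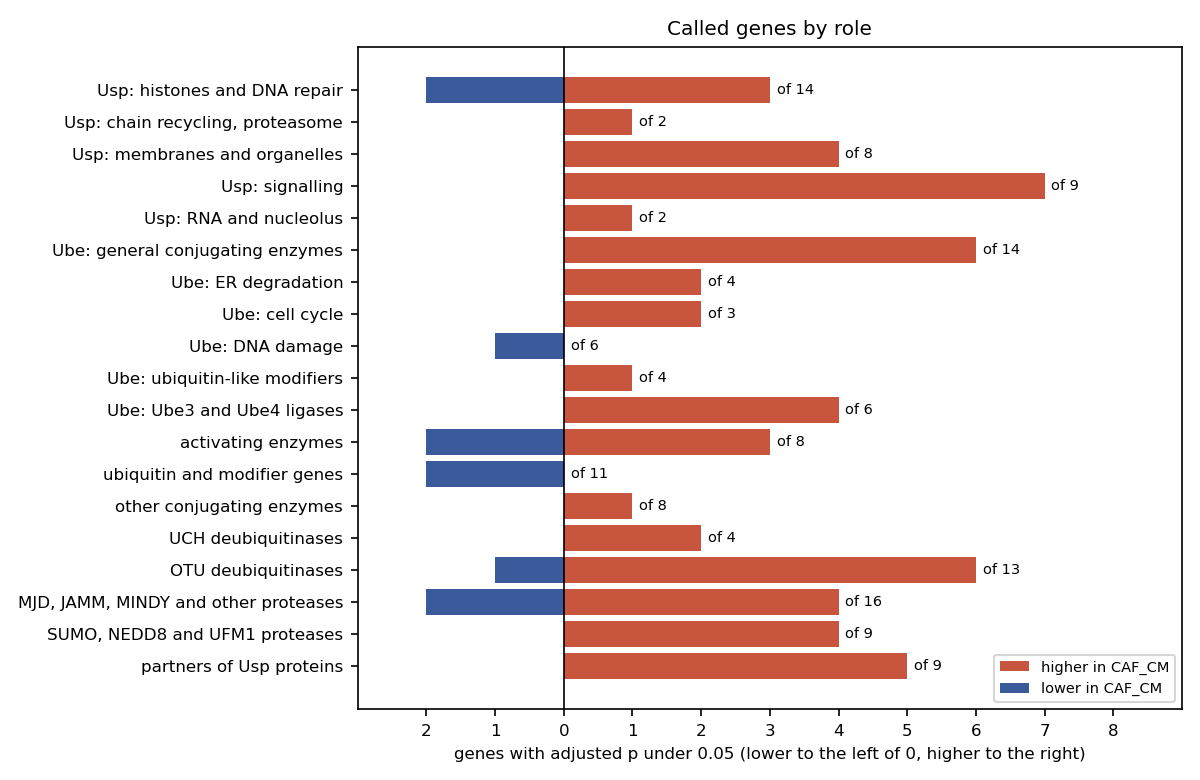
Number of genes with adjusted p under 0.05 in each role group, higher in CAF_CM to the right of 0 and lower to the left, with the number tested beside each bar; Usp and Ube groups stand above the rest of the ubiquitin system. Signalling Usp genes show 7 rises of 9 tested and the ligases 4 of 6, and among the DNA damage E2 genes the bar is 1 fall of 6, beside 18.3% of all genes higher and 16.1% lower.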

How the data were processed

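Per the labels' protocols, 6 libraries were made from total RNA with a TruSeq kit. FastQC, DESeq2 and a human build, hg19, stand in the submitters' processing notes, while the symbols are of mouse; which aligner, counter and mouse build were used is not given in the sources used here. The deposited signal is, per gene and library, a read count that the authors scaled with 1 factor for each library. Dividing by the worth of 1 read (0.949 to 1.05) gave back whole reads for 100% of values, to within 0.001. Of 20764 entries 168 carry no symbol (0.153% to 0.261% of reads) and were left out, and the lowest total of any entry is 10 reads.

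The planned test assumed raw counts. Because the values are normalized, limma 3.58.1 (R 4.3.3) was run on log2(value + 1) with a variance trend, over genes that reached 10 normalized counts in 3 or more libraries, with Benjamini-Hochberg adjustment over all 16169 genes; log2 fold changes understate changes of low genes. The 5 members below the filter are Usp13, Ube2u, Ube2nl, Ube4bos1 and Ube4bos2. edgeR 4.0.16 on the recovered reads called 5570 genes, 5466 of them among the 5555 of limma. Closest replicates (control 2 and 3) still differed beyond sampling noise (chi-square per degree of freedom 1.188), so all libraries were counted. Alternatives were DESeq2 1.42.0, other scalings, pseudocounts of 0.5 and 5, no filter or a filter of 50, group weights, a spline correction (5 degrees of freedom) for length and GC content of the longest GENCODE M21 transcript (found for 98.8% of genes), a replicate block, and each library left out. The leave-outs after that correction, and the Ube genes without antisense RNAs, were added after seeing the data. The test was checked on simulated data.

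Members, role lists and pathway lists were chosen with earlier results of these data known. Named members are, per family, the 6 largest rises and falls that were called without overlap and averaged 50 or more, and the 3 of highest mean; 1 of these and a few pathway genes are not reported here; other members are given for completeness, and up to 2 genes per pathway list by adjusted p, with others named after their values were seen.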

Additional observations from a re-analysis of the deposited data

How the results depend on the processing

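Counts of alternatives, here and above, do not include the fits without 1 library after the length and GC correction. Of 324 values of the 18 named members under alternatives, 288 kept direction and side of the threshold and 36 lost the call. Called in every counted alternative that tested the gene were 9 of 19 Usp rises (Usp12, Usp14, Usp22, Usp25, Usp29, Usp31, Usp32, Usp36 and Usp46), 7 of 15 Ube rises (Ube2e2, Ube2g2, Ube2l3, Ube2w, Ube3a, Ube3c and Ube4b) and the fall of Ube4bos3. With library totals as scaling, 10 Usp genes were higher and the Usp median was 0.0998; over all genes the split was 2231 higher and 3179 lower. With a filter of 50, 1 Ube gene was lower, since Ube4bos3 is not tested there. DESeq2 called 14 Usp genes higher and 2 lower, beside 15.2% and 13% of all genes. With length and GC correction the Usp median was 0.0785. Leaving out 1 library gave 9 to 24 Usp genes higher and 0 to 3 lower, 7 to 17 Ube genes higher and 1 to 2 lower, and 1868 to 3509 genes in all higher and 1659 to 2943 lower. After the correction, leaving out 1 library gave 11, 11, 11 and 9 Usp genes higher without CAF_CM replicate 3 and control replicates 1, 2 and 3 (19.1%, 16.5%, 16.3% and 16.6% of all genes), and 5 lower without CAF_CM replicate 2 (17.2% of all genes); 23 Ube genes were higher without CAF_CM replicate 2 (26% of all genes), 5 lower without CAF_CM replicate 1 (16.3% of all genes) and 1 lower without control replicates 1 or 2 (11% and 11.2%); and Usp medians were 0.0538, 0.0734 and 0.0860 without CAF_CM replicates 1, 2 and 3 and 0.0684, 0.0883 and 0.0661 without control replicates 1, 2 and 3. Without the correction, Usp genes called higher numbered 10 without CAF_CM replicate 3 and 9, 10 and 12 without control replicates 1, 2 and 3 (14.3%, 11.6%, 12.2% and 12.9% of all genes); Ube genes called higher numbered 9 and 7 without control replicates 1 and 2. In limma, Usp genes called lower numbered 0 without control replicates 1, 2 or 3 (3, 3 and 2 at an unadjusted p under 0.05; 10.3%, 10.6% and 10.7% of all genes were called lower), where other tools were not run, and fewer libraries were fitted.

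Whether replicate numbers pair the libraries was not tested. Deviations from the group means had correlations across genes of 0.0703, 0.0291 and 0.0305 between libraries of the same number. These are small, although each library correlated best with its own number. With the replicate block 20 Usp genes were higher and 2 lower, and 16 Ube genes higher and 2 lower, beside 19.6% and 17% of all genes; with the block and the length and GC correction these were 14 and 3, and 15 and 3, beside 23% and 16.2% of all genes, with a Usp median of 0.0785. Depth limits the lowest members, Usp13, Ube2u, Ube2nl, Ube4bos1 and Ube4bos2, where no difference was detectable.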
